A study of Mus musculus with 6 samples.

Results

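Dense clusters of accessible regions are stretches of chromosome in which many sites open to a transposase lie close together. They were found from position alone. Consecutive regions on chromosomes 1 to 19 were joined where the gap between them was 5 kb or less, and joined groups of 10 or more regions were kept. This gave 250 clusters with 2875 regions, 1.52% of the 189575 regions on these chromosomes and part of 193148 regions in all. The other joined groups hold 28759 regions in groups of 5 to 9, 105453 in groups of 2 to 4 and 52488 single regions. Among the clusters, 104 have exactly 10 regions, and 199 joined groups with 9 regions lie just outside the rule.

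Chromatin accessibility was measured by ATAC-seq, in which a transposase cuts DNA that is not packed away, in nuclei of the mouse ventral tegmental area, a part of the midbrain involved in reward. The knockdown group has the genotype Ogtflox+/Y and the control group Ogtflox-/Y, with 3 libraries each. All mice were injected there with AAV-TH-Cre, so both groups carry Cre, together with AAV-DIO-H2B-EGFP, and nuclei positive for EGFP were sorted. The model rests on virus named for Th, the tyrosine hydroxylase gene of dopaminergic neurons. The labels give no age and leave it unstated if the libraries of a group are from different animals. The p-values thus reflect the spread among these libraries, and that spread may be technical. The study asked how lowering Ogt, the gene of the enzyme that attaches O-GlcNAc sugar to nuclear and cytoplasmic proteins, changes accessible chromatin in these neurons. Ogt itself lies on the X chromosome and so in no cluster.

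As background, active regulatory DNA is often not spread evenly. Promoters and enhancers of genes that define a cell type can lie in dense runs, which are called super-enhancers where they carry strong marks of activity. In neurons, many regulatory sites lie inside long genes for synaptic, adhesion and channel proteins. Members of a run can be opened by the same factors, or each can be opened by its own.

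The sequences shown here belong to clusters described further on that hold microRNA genes, most of them without a coding gene to name them, and to the metallothionein promoters. A microRNA is a short RNA that lowers the output of messenger RNAs, mainly through pairing of its seed. The clusters overlap microRNA genes in 13 cases, of which 6 were higher in knockdown and 1 was lower by edgeR, where 15.9% of all joined groups were higher and 13.4% lower. None of the 6 higher calls was kept under scaling by library totals. The mature sequences of miR-9-5p (chr13:83738821-83738843) and miR-9-3p (chr13:83738858-83738879) come from Mir9-2. Those of miR-23a-3p (chr8:84208563-84208583), miR-27a-3p (chr8:84208727-84208747) and miR-24-3p (chr8:84208875-84208896) come from one cluster on chromosome 8. The mature miR-879-5p (chr5:9375714-9375734) comes from the Elapor2 cluster, which was lower. All are on the plus strand, are taken from RefSeq for GRCm38.p6, the assembly called mm10, and are written with the seed, bases 2 to 8, in capitals. No 2 of these seeds are the same.
mmu-miR-9-5p: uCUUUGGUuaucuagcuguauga
mmu-miR-9-3p: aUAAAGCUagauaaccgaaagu
mmu-miR-23a-3p: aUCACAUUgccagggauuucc
mmu-miR-27a-3p: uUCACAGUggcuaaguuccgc
mmu-miR-24-3p: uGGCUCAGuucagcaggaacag
mmu-miR-879-5p: aGAGGCUUauagcucuaagcc

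The cluster around Mt2 and Mt1 holds promoters of neighbouring genes for metallothioneins, small proteins that bind zinc and copper. Their promoters are known to be switched on by metal through metal response elements. The letters searched for here, TGCNCNC with N any base, are looser than the core of that element. A match is thus not by itself a metal response element. The RefSeq windows from 250 bases before to 50 bases after the start are shown with each match to these letters, on either strand, in capitals. The Mt1 window (chr8:94178839-94179138, plus strand) has 3 matches and the Mt2 window (chr8:94172368-94172667, plus strand) has 6. No matches overlap each other, and the STAT motif TTCNNNGAA was not among the letters of either window. Such matches are common, with at least 1 in 51.0% of 32851 windows of all genes and in 60.4% of the 96 windows touched by cluster regions. The STAT motif was matched in 8.3% of all windows and in 10.4% of the windows in clusters. The windows in clusters also have a median GC content of 61.3%, against 52.7% for all windows.
Mt1 promoter: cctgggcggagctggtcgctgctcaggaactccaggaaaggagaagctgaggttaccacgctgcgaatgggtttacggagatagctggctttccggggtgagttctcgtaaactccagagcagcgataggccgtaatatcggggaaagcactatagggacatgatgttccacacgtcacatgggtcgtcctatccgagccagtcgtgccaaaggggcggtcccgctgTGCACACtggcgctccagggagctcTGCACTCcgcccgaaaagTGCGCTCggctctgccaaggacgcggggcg
Mt2 promoter: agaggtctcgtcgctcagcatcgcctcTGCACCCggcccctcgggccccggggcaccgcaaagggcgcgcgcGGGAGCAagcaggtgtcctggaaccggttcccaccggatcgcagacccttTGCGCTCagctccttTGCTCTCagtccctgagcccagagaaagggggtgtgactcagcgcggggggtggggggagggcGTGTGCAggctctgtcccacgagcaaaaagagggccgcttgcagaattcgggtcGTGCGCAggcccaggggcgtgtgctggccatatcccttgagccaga

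The libraries hold between 34384319 and 66853563 reads, of which 12698758 to 24440507 fall in regions. The share of reads in regions was 33.0%, 31.0% and 37.0% in knockdown replicates 1 to 3. In control replicates 1 to 3 it was 38.2%, 36.6% and 37.6%. The part of this difference in the results, which shift with the scaling, was not tested. Over the summed reads of the 250 clusters, Pearson's r between log2 levels was 0.974 to 0.982 among knockdown libraries, 0.985 to 0.991 among control libraries and 0.934 to 0.971 between groups. For knockdown replicate 1 the genotype label and the title disagree, the title giving that of the controls. Its r was 0.974 and 0.982 with the other knockdown libraries and 0.934 to 0.952 with the control libraries. With groups taken from titles, edgeR called 0 of 250 clusters, against 7 with an unadjusted p under 0.05. With the control libraries, r was 0.956 to 0.971 for knockdown replicate 2 and 0.957 to 0.968 for knockdown replicate 3. Results are also given without single libraries and from knockdown replicate 2 alone, a fit with 1 knockdown library in which the spread comes from the control libraries. Marker lists of other cell types were summed over their regions. Those of GABAergic and microglial markers did not overlap between the groups, while those of astrocyte, oligodendrocyte, endothelial, glutamatergic and dopaminergic markers did. Sums over lists of STAT3, O-GlcNAc, activity-induced and developmental regulator genes did not overlap either, with the knockdown libraries higher. Of all joined groups, 21.2% had all 3 knockdown libraries above all 3 control libraries and 22% had them below, though a list sums many regions. The regions of 13 GABAergic markers summed to 305 to 337 CPM (counts per 1000000 reads in regions, with TMM scaling) in knockdown libraries and 215 to 260 CPM in control libraries. Those of 11 astrocyte markers summed to 388 to 519 CPM in knockdown and 353 to 400 CPM in control. The 19 dopaminergic markers all had regions, with 886 to 952 CPM in knockdown and 802 to 1013 CPM in control, and 5 of 9 microglial markers had one, with 33.5 to 40.4 CPM in knockdown and 44.6 to 46.8 CPM in control. Oligodendrocyte markers summed to 317 to 424 CPM in knockdown and 323 to 361 CPM in control, endothelial ones to 109 to 127 CPM in knockdown and 123 to 129 CPM in control, and glutamatergic ones to 107 to 134 CPM in knockdown and 116 to 120 CPM in control. The part of these values in the cluster results was not tested. In sorted pools, a region open in fewer nuclei and a region less open in each nucleus cannot be told apart.

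The clusters are 13242 to 59629 bp long, and the median gap between neighbouring regions of a cluster had a median of 2095 bp over clusters. They have 10 to 21 regions, with a mean of 11.5. A protein-coding gene is overlapped by 231 clusters, a single gene by 198 and several by 33, which makes 260 genes in all. The other 19 overlap none. The genes are long. Their median length was 107 kb, against 17.5 kb for 20665 protein-coding genes on these chromosomes. A promoter window is touched by 2.78% of cluster regions, against 5.50% of all regions, while 80.1% of cluster regions lie elsewhere within a gene, against 60.9%. Regions of clusters thus lie mostly within genes and touch promoter windows less often than all regions do. Counted by cluster, 58 of 250 touch a promoter window. Groups of 5 to 9 regions lie between, with 4.59% of their regions at a promoter window and 73.9% elsewhere within a gene.

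No difference between the groups was detected in the share of reads that the clusters hold. They held 1.72%, 1.70% and 1.83% of reads in regions in knockdown replicates 1 to 3, and 1.75%, 1.77% and 1.72% in control replicates 1 to 3. The means were 1.75% ± 0.0716 in knockdown and 1.75% ± 0.0290 in control (SD, n = 3 each). The knockdown values lie on both sides of the control values, and an exact two-sided permutation test gave p = 0.9, where 3 against 3 libraries cannot go below 0.1.

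Single clusters did differ. Reads were summed over each cluster and tested with edgeR's quasi-likelihood test, with Benjamini-Hochberg adjustment over 98492 joined groups of any size and a threshold of 0.05. In knockdown 45 of 250 clusters were higher, or 18%, where 15.9% of all joined groups were. A further 37 were lower, or 14.8%, where 13.4% of all joined groups were. These shares are near those of the background. The log2 fold changes of the clusters, knockdown over control, have a median of 0.02 and run between -0.87 and 1.07. They are narrower than those of single regions, with an SD of 0.27 against 0.73. The SD was 0.49 for groups of 2 to 4 regions and 0.34 for groups of 5 to 9. Summing over more regions itself narrows the spread, so no conclusion is drawn from this. All 3 knockdown libraries stood above all 3 control libraries in 58 clusters, where 21.2% of all joined groups had this order. All 3 stood below in 52 clusters, where the share was 22% of all joined groups. Leaving out knockdown replicate 2 gave 68 higher and 40 lower clusters. Without control replicate 2 there were 25 and 20, without control replicate 3 there were 25 and 35, and without knockdown replicate 3 there were 25 and 44. Without control replicate 1 there were 50 and 24. Knockdown replicate 2 alone against the controls gave 11 and 31. Scaled by library totals in place of TMM factors, which shifts the median of all regions by -0.27 against -0.01, there were 3 higher and 92 lower clusters. Scaled by reads in regions, with the median at -0.12, there were 31 higher and 77 lower, so the balance of directions rests on the scaling.

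The regions of clusters showed the same balance. Of 2872 regions tested, 451 were higher in knockdown, or 15.7% where 15.4% of all 191693 regions tested were. Lower were 384, or 13.4% where 12.7% of all regions were. Their median log2 fold change was -0.04, and that of all regions on these chromosomes was -0.01.

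Regions of a cluster mostly did not move as 1 unit. The question was put with edgeR's diffSpliceDGE, which sets each region's change against that of its whole joined group, so that a scaling common to a library has little weight. The F test per cluster passed in 217 of 250, or 86.8%, where 31.2% of 46483 joined groups with several regions passed. The share grows with the number of regions, since 27.2% of groups of 2 to 4 and 61.9% of groups of 5 to 9 passed, and the part of that number in the cluster share was not tested. Region by region, 404 of 2872 differed from their own cluster, or 14.1% where 7.49% of such regions in all joined groups did. This share also grows with the number of regions, at 6.19% in groups of 2 to 4 and 11.6% in groups of 5 to 9. The number of clusters that passed was 204 under library totals and 214 under reads in regions. It was 173 to 214 with 1 library left out, and 133 from knockdown replicate 2 alone.

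Regions called both higher and lower occurred in 115 of the 250 clusters, where 994 of 4878 groups of 5 to 9 regions and 1482 of 41668 groups of 2 to 4 had both. The chance to hold both grows with the number of regions, and its part in this count was not tested. The clusters hold regions called higher but none lower in 64, lower but none higher in 59, and no called region in 12. Among the 4878 groups of 5 to 9 regions these counts were 1520, 1469 and 895. The SD of log2 fold changes within a cluster had a median of 0.52, and the range from its lowest to its highest region a median of 1.66. In groups of 5 to 9 regions these medians were 0.49 and 1.28, and a range widens with the number of regions. The sums of whole clusters had an SD of 0.27, which is not a like measure, since summing narrows the spread. A median of 63.6% of a cluster's regions had the sign of its sum, against 66.7% in groups of 5 to 9 regions. Of the variance of region changes, 14.97% lay between clusters, as against 16.2% for groups of 5 to 9 regions and 25.2% for groups of 2 to 4.

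**Figure D1:**
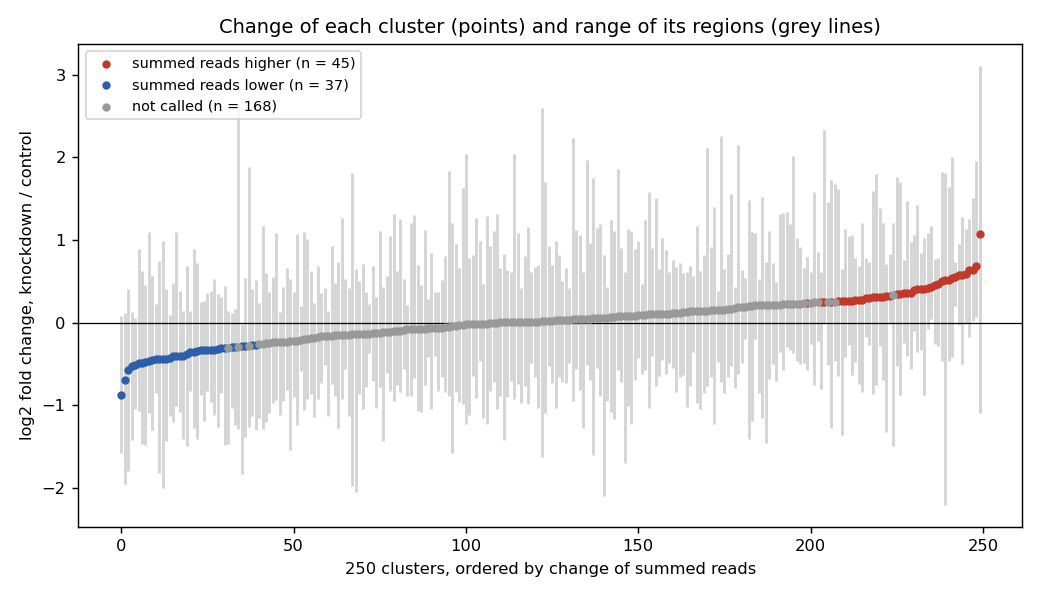
Log2 fold change of summed reads, knockdown over control (vertical axis), for the 250 clusters ordered by that change (horizontal axis). Points are clusters, coloured where called, and grey lines run from the lowest to the highest region of each cluster. The points stay between -0.87 and 1.07, while single regions reach 3.11.

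Regions near each other changed alike, and cluster membership added little to this. Pairs with centres less than 1 kb apart in a cluster had a Pearson's r of 0.493 between their log2 fold changes, over 506 pairs, against 0.450 over 23742 pairs outside clusters. At 3 to 5 kb it was 0.189 in clusters and 0.142 outside, and at 20 to 40 kb 0.116 in clusters and 0.085 outside. The same sign was shared by 68.8% of the nearest pairs in clusters and 69.2% outside, and over all pairs up to 40 kb by 55.6% in clusters and 54.2% outside. These are descriptions across pairs, which share libraries and regions, and no test was made of the difference.

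**Figure D2:**
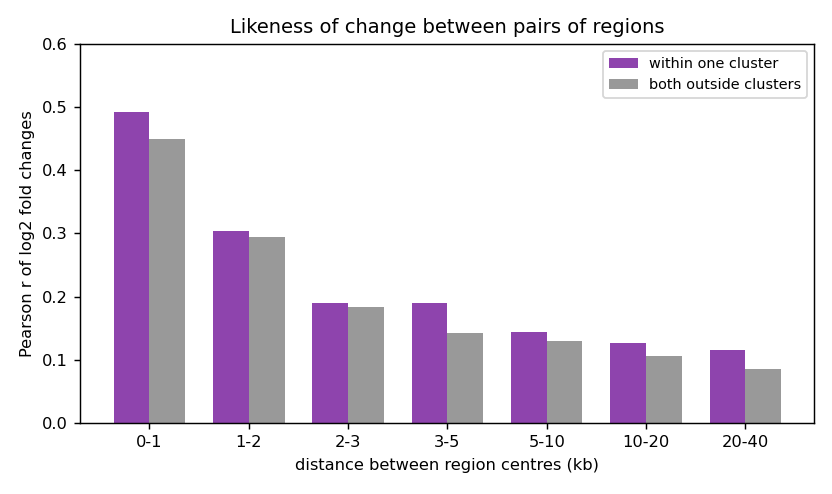
Pearson's r between the log2 fold changes of pairs of regions (vertical axis) by the distance between their centres in kb (horizontal axis), for pairs inside a cluster (purple) and pairs outside clusters (grey). In clusters r is 0.493 for the nearest pairs and 0.116 for the farthest.

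Among the 45 higher clusters, 526 regions were tested, of which 210 were called higher, 21 lower and 295 neither. A majority of regions was called higher in 10 of these clusters, and 15 hold a region called lower. The groups of libraries did not overlap in 43, where 21.2% of all joined groups had all 3 knockdown libraries above all 3 control libraries. Knockdown replicate 2 was the lowest knockdown library in 33. The 37 lower clusters hold 415 regions, of which 124 were called lower, 6 higher and 285 neither. No lower cluster had a majority of regions called lower. The libraries of the groups were apart in all 37, where 22% of all joined groups had all 3 knockdown libraries below. The sums were called from these same regions and libraries. The many regions called in the direction of the sum and the separation of libraries thus largely follow from the calls. Neither is further support for them. Knockdown replicate 2 was the highest knockdown library in 11 of the lower clusters. In the 168 clusters without a called sum, 1931 regions were tested, of which 235 were called higher and 239 lower. Of all regions tested, 15.4% were higher and 12.7% lower, so these counts do not stand above the background. Both directions occurred in 94 of the 168 clusters.

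The highest cluster was that of Zfp184, a zinc finger protein gene, on chromosome 13 between 21903158 and 21945809. Its 17 regions summed to 144, 143 and 126 CPM in knockdown replicates 1 to 3, against 69.0, 61.3 and 66.3 CPM in control replicates 1 to 3. Every knockdown library was far above every control library, with a log2 fold change of 1.07 and an SE of 0.088 (edgeR adjusted p = 1.95e-06). Beyond the gene's start, the cluster spans 15 tRNA genes, whose RNAs carry amino acids to the ribosome and are made by RNA polymerase III. The 13 regions that overlap a tRNA gene were all called higher, with log2 fold changes between 0.69 and 3.11 and a median of 1.52. The region over the serine tRNA gene n-TSaga5 (21919078 to 21919478) had 19.1 ± 1.39 CPM in knockdown and 2.19 ± 0.602 CPM in control (SD, n = 3 each). The leucine tRNA region (21914617 to 21915017) had 11.2 ± 0.872 CPM in knockdown and 1.88 ± 0.437 CPM in control. The region at the promoter of Zfp184 itself had 22.1 ± 2.17 CPM in knockdown and 23.7 ± 4.28 CPM in control, a log2 fold change of -0.09 (edgeR adjusted p = 0.607). The first region of the cluster was lower, with a log2 fold change of -1.09. Of its 17 regions, 9 differed from the cluster as a whole (F test adjusted p = 3.8e-23). The sum stayed called under library totals, under reads in regions and with each library left out.

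The overlap with tRNA genes was looked for after these values were seen. Of the clusters, 4 overlap a tRNA gene, and they hold 27 such regions, of which 18 were higher and none lower, where 15.4% of all regions were higher. Most of the higher ones, 13, are those of the Zfp184 cluster that prompted the look. Of the other 14 regions 5 were higher, with a median log2 fold change of 0.41, and under library totals 3 were higher and 1 lower, with a median of 0.14. The Abt1 cluster has a tyrosine tRNA region (23426898 to 23427298) with 10.3 ± 1.06 CPM in knockdown and 2.99 ± 0.621 CPM in control, while its tRNA region at 23438498 to 23438898 had 3.46 ± 0.438 CPM in knockdown and 4.95 ± 0.552 CPM in control (adjusted p = 0.0617). The cluster of the histone genes H4c8, H2ac10 and H3c8 has 7 tRNA regions, of which 3 were called higher. Its sum was 157 ± 8.57 CPM in knockdown and 145 ± 14.96 CPM in control (log2 fold change 0.11, edgeR adjusted p = 0.366). tRNA genes occur in near-identical copies, so reads may have been placed at the wrong copy and the level of any single one is uncertain.

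The 4 microRNA clusters without a coding gene were each called higher, and none kept the call under library totals. The Mir9-2 cluster (chromosome 13, 83721021 to 83745308), 53942 bp from Mef2c, its nearest coding gene, had 209, 174 and 188 CPM in knockdown replicates 1 to 3, against 125, 130 and 128 CPM in control replicates 1 to 3. miR-9 is known as a microRNA of neural progenitors and neurons. The log2 fold change was 0.58 with an SE of 0.086 (edgeR adjusted p = 2.77e-04), and 9 of 12 regions were called higher and none lower. Its largest region (83744908) had 48.6 ± 5.20 CPM in knockdown and 37.2 ± 1.31 CPM in control. The cluster of Mir124a-2 (chromosome 3, 17785061 to 17805618), the gene of a microRNA abundant in neurons, had 134, 136 and 140 CPM in knockdown replicates 1 to 3, against 86.6, 96.6 and 96.1 CPM in control replicates 1 to 3. Its log2 fold change was 0.55 (SE 0.081, adjusted p = 2.64e-04). Of its 11 regions 7 were called higher, and the changes lay between 0.21 and 0.73. The test of differences between regions did not pass (adjusted p = 0.117). The cluster of Mir23a, Mir27a and Mir24-2 (chromosome 8, 84183955 to 84210824) had 134, 126 and 138 CPM in knockdown replicates 1 to 3, against 113, 106 and 100 CPM in control replicates 1 to 3, with 6 regions higher and 1 lower, and its call was lost without control replicate 2 or control replicate 3. The Mir3089 cluster on chromosome 2 had 263, 212 and 289 CPM in knockdown, against 207, 206 and 197 CPM in control, and there knockdown replicate 2 lies near the control libraries. Its call was lost without control replicate 2, control replicate 3 or knockdown replicate 3. Among all 13 clusters with a microRNA gene, those of Ddost with Pink1 and Cda and of Klf9 were higher too, and that of Elapor2 with Mir879 was lower. Under library totals the log2 fold change was 0.31 for Mir9-2 (adjusted p = 0.0502), 0.29 for Mir124a-2 (adjusted p = 0.0643), 0.07 for Mir3089 and 0.057 for Mir23a.

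The next largest increase was at Slc3a2, which encodes the heavy chain of amino acid transporters. Its cluster (chromosome 19, 8702387 to 8728918) had 108, 96.0 and 106 CPM in knockdown replicates 1 to 3, against 69.4, 61.7 and 62.3 CPM in control replicates 1 to 3. The groups lie well apart, with a log2 fold change of 0.68 and an SE of 0.086 (edgeR adjusted p = 8.27e-05). All 9 regions tested had positive changes and 6 were called, but not evenly. One region (8712798), with the region at 8713224 between it and that of the promoter, had 14.1 ± 0.419 CPM in knockdown and 3.66 ± 0.479 CPM in control. It differed from the cluster as a whole (log2 fold change 1.96, diffSpliceDGE adjusted p of the difference 3.96e-08). The promoter region had 12.9 ± 0.830 CPM in knockdown and 8.39 ± 1.04 CPM in control.

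At Mt2 and Mt1 both promoters shown above were higher in knockdown. The cluster (chromosome 8, 94163314 to 94189679) had 148, 102 and 149 CPM in knockdown replicates 1 to 3, against 104, 80.9 and 82.1 CPM in control replicates 1 to 3. The groups overlap, since control replicate 1 is above knockdown replicate 2 (log2 fold change 0.58 with an SE of 0.13, edgeR adjusted p = 0.00343). The Mt1 promoter region had 43.2 ± 7.42 CPM in knockdown and 21.4 ± 2.31 CPM in control, a log2 fold change of 1.02. The Mt2 promoter region had 25.0 ± 4.70 CPM in knockdown and 10.9 ± 1.19 CPM in control, a log2 fold change of 1.20. A region at the far end (94189279) had a log2 fold change of 1.28, which was -0.07 from knockdown replicate 2 alone. A region before both genes (94167229) was lower, with 8.81 ± 0.732 CPM in knockdown and 12.5 ± 2.17 CPM in control.

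At Lrp1, which encodes a large receptor that takes up lipoproteins, 7 of 10 regions were higher and none lower (chromosome 10, 127596502 to 127623808). The cluster had 112, 85.0 and 121 CPM in knockdown replicates 1 to 3, against 74.3, 66.4 and 64.7 CPM in control replicates 1 to 3. Its regions were not shown to differ from each other (F test adjusted p = 0.0897). The Plekhm2 cluster, at a gene for a protein that links lysosomes to kinesin motors, had positive changes in all 13 regions, with 94.1, 65.5 and 99.9 CPM in knockdown, against 54.9, 55.4 and 56.2 CPM in control. Arnt2 encodes a basic helix-loop-helix partner of other transcription factors, and its cluster had 96.0 ± 8.27 CPM in knockdown and 63.6 ± 3.77 CPM in control. The Rapgef3 and Slc48a1 cluster, of an exchange factor opened by cAMP and a heme transporter, had 158 ± 17.8 CPM in knockdown and 110 ± 3.31 CPM in control. In the Tyro3 cluster, of a receptor tyrosine kinase, the sum of 67.7 CPM in knockdown replicate 1 stood above 42.3 and 46.9 CPM in the other knockdown libraries, while the control libraries had 34.2 to 38.4 CPM. Under library totals 3 increases stayed called, those of Zfp184, Slc3a2 and Arnt2. From knockdown replicate 2 alone the sums of Plekhm2, Lrp1, Tyro3 and Mt2 with Mt1 were not called.

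**Figure D3:**
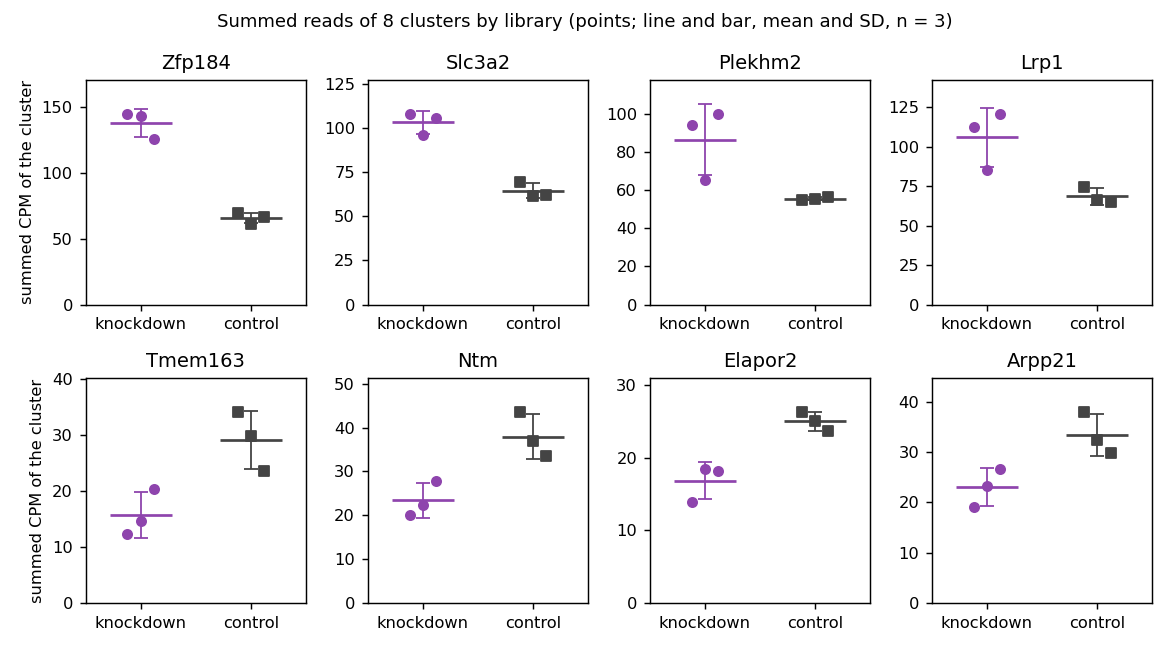
Summed CPM (vertical axes, from 0) of the 4 higher clusters with the largest changes at coding genes (top) and the 4 lower clusters with the largest changes (bottom), by library (points), with mean and SD of 3 libraries, knockdown left and control right. At Zfp184 the knockdown libraries lie between 126 and 144 CPM and the control libraries between 61.3 and 69.0 CPM.

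The 37 decreases had a median log2 fold change of -0.40 and the 45 increases one of 0.36. The largest decrease was at Tmem163, a gene for a zinc transporter of synaptic vesicles (chromosome 1, 127575384 to 127597807). Its 10 regions summed to 12.3, 14.7 and 20.3 CPM in knockdown replicates 1 to 3, against 34.0, 29.8 and 23.6 CPM in control replicates 1 to 3. The groups do not overlap, though knockdown replicate 3 and control replicate 3 are close (log2 fold change -0.87 with an SE of 0.16, edgeR adjusted p = 0.00109). Of its regions 5 were lower and none higher, and the F test did not pass (adjusted p = 0.0817). Ntm encodes neurotrimin, a cell adhesion protein of neurons. Its lower cluster had 20.1, 22.2 and 27.9 CPM in knockdown replicates 1 to 3, against 43.5, 37.0 and 33.4 CPM in control replicates 1 to 3. At the Elapor2 cluster the sums were 13.9, 18.4 and 18.2 CPM in knockdown and 26.2, 25.1 and 23.6 CPM in control. At Arpp21, a gene for a phosphoprotein regulated by cAMP, they were 19.01, 23.3 and 26.6 CPM in knockdown and 37.8, 32.4 and 29.7 CPM in control.

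Tenm2, which encodes a teneurin adhesion protein of synapses, has a pair of clusters, and both were lower. One had 23.7 ± 0.880 CPM in knockdown and 33.8 ± 2.16 CPM in control (log2 fold change -0.51, edgeR adjusted p = 0.00132), and the other 36.8 ± 1.33 CPM in knockdown and 50.1 ± 2.85 CPM in control (log2 fold change -0.44, adjusted p = 0.00179). The Kif26b cluster, of a kinesin family member, had 25.1 ± 4.15 CPM in knockdown and 35.0 ± 1.53 CPM in control. Anks1b encodes a protein of the postsynaptic density, and its lower cluster had 27.2 ± 0.456 CPM in knockdown and 38.0 ± 5.84 CPM in control. Its most accessible region (90661854) had 3.05 ± 0.552 CPM in knockdown and 8.66 ± 2.48 CPM in control and differed from the cluster as a whole. The cluster of Cacnb4, an auxiliary subunit of voltage-gated calcium channels, had 22.1 ± 0.271 CPM in knockdown and 30.1 ± 1.83 CPM in control. With each library left out in turn, 19 of the 37 lower calls held. Both other scalings shift all regions downward and so do not bear on the lower calls. Lower clusters without a coding gene lie nearest to Tmem121 (log2 fold change -0.49) and Cep170 (log2 fold change -0.47).

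The other lower clusters, with log2 fold changes between -0.44 and -0.27, overlap genes that include Cntn5, Snx29, Pknox2, Itpr1, Bcr, Plxna4, Sdccag8, Plekha5, Cacna2d1, Smug1, Gfod1, Syt1, Ccdc6, Astn2, Aff3, Rora, Grik4, Trim44, Gpr107, Apba1, Akap6, Rec114 with Hcn4, Samm50 with Parvb, Dyrk1a and Mgat5. Genes of lower clusters have a median length of 235 kb over 36 genes, those of higher clusters 22.2 kb over 56 genes, and those of clusters without a called sum 132 kb over 174 genes. Further higher clusters, with log2 fold changes between 0.24 and 0.52, overlap genes that include Gabbr1, Wipf2, Gipc2, Larp4b, Plk3, Pink1, Pnmal1, Cpeb3, Atxn1, Arid1a, Sybu, Tmcc3, Wscd1, Klf9, Fmn2, Cpe, Chd5, Slco2b1, Cipc, Kif1a, Nxph1 and Ccdc148. With each library left out in turn, 21 of the 45 higher calls held. Of the genes just listed, those whose clusters kept their call in every such fit were Snx29, Itpr1, Bcr, Sdccag8, Cacna2d1, Smug1, Gfod1 and Ccdc6 among the lower and Tmcc3, Fmn2, Cpe, Chd5, Slco2b1, Cipc, Kif1a and Nxph1 among the higher. Without the most accessible region of each group, 34 of the 45 higher and 30 of the 37 lower calls were kept. The calls lost in this way include those of Tmcc3, Slco2b1, Dlgap4, Anks1b and Syt1. The sums at Gabbr1, Larp4b, Pink1, Arid1a, Borcs6 with Tmem107, Ptma with Pde6d, Dlgap4, and Pcif1 with Zfp335 each lost their call without control replicate 2, control replicate 3, knockdown replicate 1 or knockdown replicate 3. Under library totals the log2 fold changes turned to -0.02 for Gabbr1, -0.0099 for Borcs6, -0.0095 for Ptma and -0.009 for Dlgap4. Kif1a encodes a motor that carries synaptic vesicle precursors, and Gabbr1 a subunit of the GABA-B receptor.

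More than 1 cluster overlaps each of 14 genes. Tenm2 was the single gene of these with more than 1 called cluster, and both of its clusters were lower. At least 1 cluster was called in 7 of the genes. Opposite calls in a gene need more than 1 called cluster, so their absence in the other genes is no result. The first Nav2 cluster, at the start of this neuron navigator gene, had 208 ± 28.7 CPM in knockdown and 162 ± 4.06 CPM in control (log2 fold change 0.36, edgeR adjusted p = 0.00996), a call lost without knockdown replicate 3. The second, inside the gene, had 49.9 ± 5.25 CPM in knockdown and 54.9 ± 1.40 CPM in control (adjusted p = 0.271). At Ntm the second cluster had 59.7 ± 6.70 CPM in knockdown and 56.5 ± 3.01 CPM in control (adjusted p = 0.551). Prickle2, a planar polarity gene, has 3 clusters, and none was called.

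Calls differed between clusters that touch a promoter window and those that do not, without a test of that difference. Of 58 clusters with such a region, 31 were higher and 2 lower in knockdown, with a median log2 fold change of 0.25. Of 192 without one, 14 were higher and 35 lower, with a median of -0.02. Among all joined groups, 15.9% were higher and 13.4% lower. Under library totals, 4 of the clusters with a promoter window and 88 of those without were lower, and the 3 higher clusters all had one. From knockdown replicate 2 alone, 9 with and 2 without were higher, and the 31 lower clusters all had none. The medians differed in the same order each time, at -0.01 and -0.28 under library totals. Promoter regions outside clusters did likewise. Of 80 promoter-window regions in clusters 33 were higher and 3 lower, and of 10346 outside clusters 37.4% were higher and 4.97% lower. Among all regions tested, 15.4% were higher and 12.7% lower. Under library totals 9 of the 80 were higher and 8 lower, and outside clusters 5.46% were higher and 12.4% lower. From knockdown replicate 2 alone the median log2 fold change of promoter-window regions was 0.12 in clusters and 0.14 outside. Promoter-window regions in clusters had a median of 27.5 CPM in control, against 3.61 CPM for all cluster regions. The part of this level in the calls was not tested. The other 599 regions tested in the clusters with a promoter window also had a median of 0.15, against -0.10 for 2193 regions of clusters without one. These were 0.04 and -0.21 under reads in regions, and -0.11 and -0.35 under library totals. Within the 58 clusters, the promoter regions had a higher mean change than the other regions in 36, with a median difference of 0.08.

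The lowest F test p was that of Zfp184, and the next that of Ksr2, whose sum was not called. Ksr2 encodes a scaffold of the MAP kinase pathway, and its 14 regions (chromosome 5, 117704414 to 117737848) summed to 53.6, 61.1 and 70.6 CPM in knockdown replicates 1 to 3, against 69.4, 60.9 and 53.1 CPM in control replicates 1 to 3. The groups overlap. Of its regions 3 were higher and 4 lower (F test adjusted p = 6.6e-13). The first region had 5.89 ± 1.61 CPM in knockdown and 13.7 ± 3.28 CPM in control, and one 19685 bp further on had 3.28 ± 0.146 CPM in knockdown and 0.536 ± 0.0303 CPM in control (log2 fold change 2.60). At Cdcp1, a gene for a surface glycoprotein, the sum was 19.2 ± 1.95 CPM in knockdown and 23.4 ± 0.642 CPM in control. Its regions ran between log2 fold changes of -1.29 and 2.64, and the upper end rests on 1.89 ± 0.261 CPM in knockdown and 0.278 ± 0.110 CPM in control. Levels this low are near 3 reads, which equal 0.123 to 0.236 CPM depending on the library.

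Others among the 10 clusters with the lowest F test p include some with a called sum. In Myt1l, a gene for a neuronal zinc finger factor, a region at 29647114 had 12.1 ± 1.35 CPM in knockdown and 2.65 ± 0.801 CPM in control, while the cluster summed to 68.4 ± 5.72 CPM in knockdown and 66.5 ± 2.71 CPM in control. In Apba2, an adaptor gene of the synapse, regions ran from 1.14 ± 0.0995 CPM in knockdown and 3.56 ± 1.19 CPM in control to 9.62 ± 1.21 CPM in knockdown and 2.85 ± 0.146 CPM in control. The promoter region of Ece1, which encodes endothelin-converting enzyme, had 39.5 ± 3.19 CPM in knockdown and 39.5 ± 3.72 CPM in control, while 4 regions of its cluster were higher and 3 lower. The cluster of Ptma, the prothymosin alpha gene, and Pde6d had 3 regions higher and 2 lower, and that of Dennd2a also had 3 higher and 2 lower, and both sums were called higher. The higher call of the Dennd2a sum was lost without control replicate 3 or knockdown replicate 3. In Zmiz1, a region at the cluster's start had 15.9 ± 2.55 CPM in knockdown and 5.34 ± 0.745 CPM in control.

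**Figure D4:**
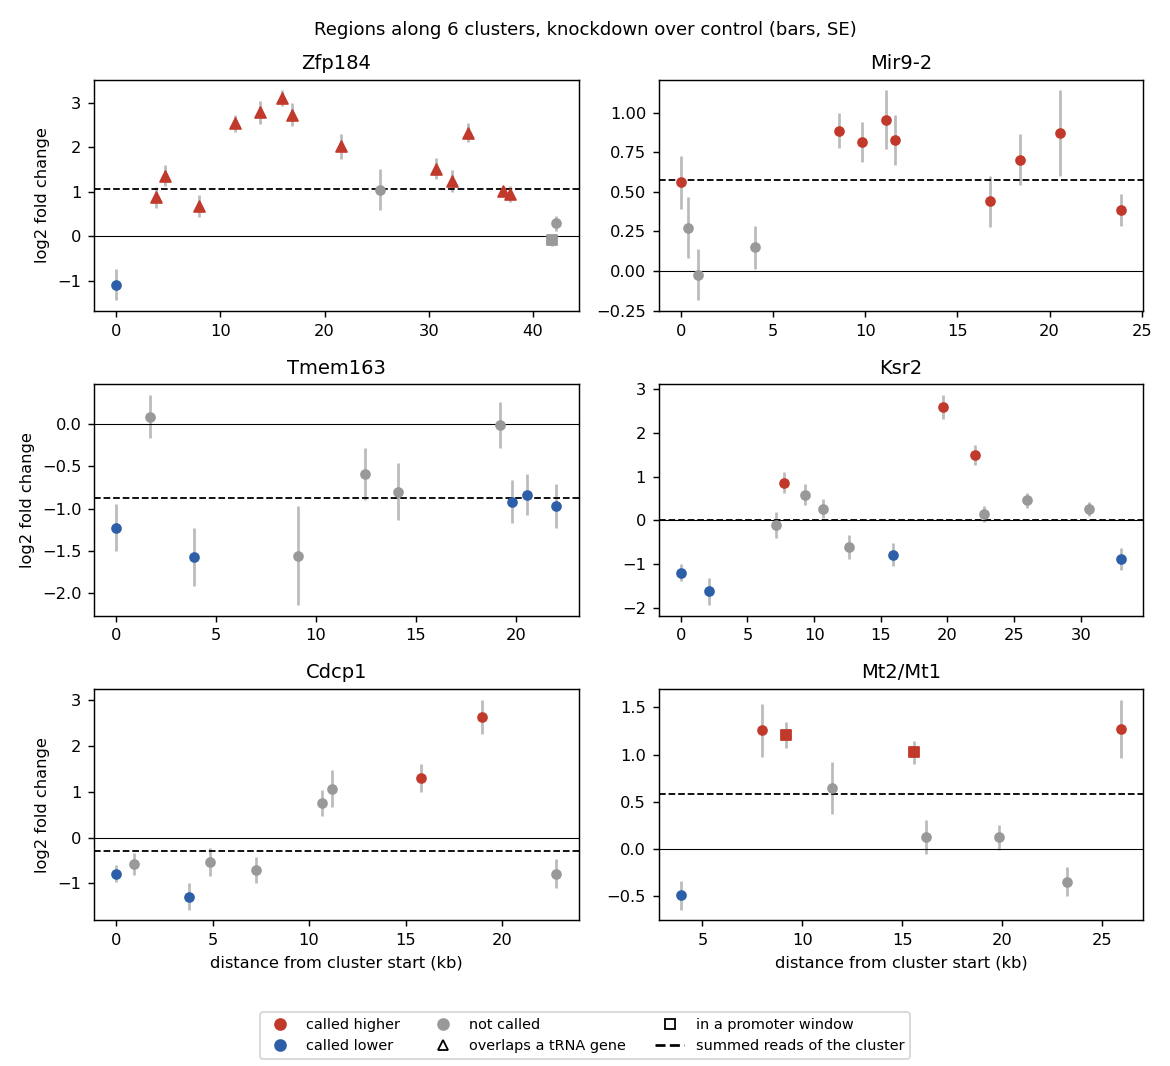
Log2 fold change of each tested region, knockdown over control (vertical axes; bars are SE), by distance from the cluster's start in kb (horizontal axes), for 6 clusters. Dashed lines give the change of the summed reads; triangles overlap a tRNA gene and squares lie in a promoter window. At Zfp184 regions run from -1.09 to 3.11, and at Ksr2 from -1.62 to 2.60 around a sum of 0.02.

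All tested regions shared 1 sign in 5 clusters, those of Mir124a-2, Plekhm2, Slc3a2, Cbarp with Atp5d and Midn, and Rec114 with Hcn4, the last of them lower. This was so in 662 of 4878 groups of 5 to 9 regions, where fewer regions have to share it. A called sum without a passed F test occurred in 10 clusters. Higher were Mir124a-2, Arnt2, Tmcc3, Lrp1, Sybu and Klf9, and lower were Tmem163, Astn2, Ccdc6 and Tenm2. A missed F test does not show that their regions changed alike.

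The clusters with the most regions are those of Gfod1 and Lrrc74a, with 21 each. Gfod1 was lower, with 90.6 ± 8.53 CPM in knockdown and 116 ± 9.43 CPM in control, and 8 of its regions were lower and 1 higher. Lrrc74a was higher, with 303 ± 19.6 CPM in knockdown and 244 ± 11.2 CPM in control, and 10 regions higher. Its call was lost without control replicate 3 or knockdown replicate 3. Gabbr1, with 19 regions, had 185 ± 15.2 CPM in knockdown and 157 ± 3.39 CPM in control. Dcc, the gene of a netrin receptor, Slc22a23 and Celf4, an RNA-binding protein gene, have 18 each and none was called.

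Reads per region were highest in the clusters of Cbarp with Atp5d and Midn, of Traf7 with Rab26 and Pkd1, of Mir3089, of Borcs6 with Tmem107 and of Brd2 with H2-DMa and H2-DMb2. Brd2 encodes a protein that reads acetylated histones. Its cluster had 264, 208 and 231 CPM in knockdown replicates 1 to 3, against 180, 162 and 155 CPM in control replicates 1 to 3, with 6 regions higher and none lower. The Brd2 promoter region alone had 86.9 ± 8.65 CPM in knockdown and 54.1 ± 6.43 CPM in control. The cluster of Traf7, Rab26 and Pkd1 had 249, 218 and 249 CPM in knockdown, against 219, 198 and 192 CPM in control, and did not pass (adjusted p = 0.0507).

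Few genes of the lists of cell type and pathway genes lie in clusters. No cluster overlaps a gene of the dopaminergic, GABAergic, glutamatergic, glial, endothelial, STAT3, O-GlcNAc or activity lists. Of the 10 general neuronal genes, Stmn2, Syt1 and Celf4 are overlapped, by 5 clusters together. Syt1 encodes the calcium sensor of vesicle release. Its cluster of 10 regions was lower, with 18.8 ± 1.53 CPM in knockdown and 23.9 ± 0.689 CPM in control (edgeR adjusted p = 0.0223), and its cluster of 11 regions had 34.4 ± 2.29 CPM in knockdown and 40.3 ± 2.13 CPM in control (adjusted p = 0.0716). The call of the first was lost without control replicate 1, control replicate 2 or knockdown replicate 1. Stmn2, a regulator of microtubules, had 92.9 ± 8.55 CPM in knockdown and 86.6 ± 2.81 CPM in control (adjusted p = 0.385). Pbx3, a homeodomain gene, was the single member of 73 developmental regulators with a cluster, with 40.4, 40.3 and 40.1 CPM in knockdown, against 34.6, 36.7 and 32.5 CPM in control (adjusted p = 0.0728).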

How the data were processed

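Each of the 6 deposited tables lists the same regions with, per the file headers, their read counts, RPKM and score. Per the submitters' processing notes, the build was mm10 and the tools included BWA, MACS2, Picard and SAMtools 1.9. How reads were counted, and whether they were shifted for transposase binding, is not stated in these sources. The deposited counts, whole and not normalized, entered the tests unchanged. Library totals were worked out from the deposited RPKM values, and the authors' score was not tested.

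Groups were taken from the genotype label. Counts were tested with edgeR 4.0.16 (R 4.3.3): quasi-likelihood fits over all regions and over all joined groups, with TMM factors of the whole table and the package's filter, and diffSpliceDGE within joined groups. Levels are CPM with TMM scaling, mean ± SD of 3 libraries. Tests were run on simulated data in which regions were independent and had the same spread beyond counting error. Neighbouring regions here changed alike, so that run checked the code and gives no support to the calls. Genes, tRNA genes and promoter windows come from RefSeq for GRCm38.p6; the tables do not separate exons, introns and UTRs.

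The members, lists and naming rule were chosen with earlier results of these data known. The rule names the 10 clusters with most regions, the 10 largest called changes each way, the 5 with most reads per region, the 10 lowest F test p-values and clusters at list genes, each with its top, highest and lowest region. A cluster the rule names and a further called cluster are not reported here. The tRNA overlap, other regions of the drawn clusters and further called clusters were added after their values were seen. Counting error alone is covered by the level of 3 reads. Alternatives were DESeq2 1.42.0 with a Wald test, other scalings, filters, joining rules, libraries left out and grouping by title; knockdown replicate 2 alone was added after seeing the data.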

Additional observations from a re-analysis of the deposited data

How the results depend on the processing

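No paired analysis was possible because the numbers in the titles are not shared between the groups. A gap of 2.5 kb joins at most 9 regions and leaves no cluster. The cause of the changes below was not tested, except that other joining rules change how many clusters there are.

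With 1 library left out, clusters called numbered 25 to 68 higher and 20 to 44 lower, cluster regions called 308 to 490 higher and 205 to 367 lower, and clusters with a passed F test 173 to 214. Of the 45 higher clusters 21, and of the 37 lower ones 19, kept their call in every such fit. With groups taken from titles there were 0 higher and 0 lower clusters (7 at an unadjusted p under 0.05 with edgeR), 0 higher and 0 lower regions (319 unadjusted) and 0 passed F tests (76 unadjusted). Library totals gave 3 higher and 92 lower clusters, with 193 higher and 765 lower regions, and reads in regions gave 77 lower clusters. Knockdown replicate 2 alone gave 11 higher clusters, 172 higher and 214 lower regions and 133 passed F tests. DESeq2 called 47 clusters higher and 34 lower, with 340 higher and 244 lower regions. A gap of 10 kb gave 3798 clusters, 774 higher and 578 lower, 8419 and 8444 regions and 3543 passed F tests. With 8 or more regions there were 804 clusters, 130 higher and 114 lower, 1121 and 1022 regions and 650 F tests. With 15 or more there were 22 clusters, 6 higher and 2 lower, 67 and 46 regions and 21 F tests. The share of reads in clusters, knockdown minus control, was 0.0043 percentage points and lay between -0.0368 and 0.0285 with 1 library left out, lowest without knockdown replicate 3 and also below 0 without control replicate 3 (-0.0105). It was -0.0621 over all reads of a library, -0.554 with a gap of 10 kb and -0.0459 with 8 or more regions.

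Among clusters named by the rule and regions of the drawn clusters, the log2 fold changes that changed sign belong to values that were not called, except Borcs6, Gabbr1 and Ptma under library totals and the Mt2/Mt1 region, and are given by setting. Of further called clusters, Dlgap4 changed sign under library totals (-0.009) and lay at -0.000 without its most accessible region. Under library totals they were Apba2 -0.20, Borcs6 -0.0099, Celf4 (25733229) -0.11, Ece1 -0.19, Gabbr1 -0.019, Ksr2 -0.23, Myt1l -0.22, Pbx3 -0.043, Ptma -0.0095, Slc22a23 -0.16, Stmn2 -0.15, Traf7 -0.025, Zfhx2 -0.033, Zmiz1 -0.082, the Slc3a2 region at 8706093 -0.20 and the Tmem163 region at 127577077 -0.17. Under reads in regions they were Apba2 -0.058, Ece1 -0.038, Ksr2 -0.083, Myt1l -0.066, Slc22a23 -0.013, Stmn2 -0.0034, the Slc3a2 region at 8706093 -0.043 and the Tmem163 region at 127577077 -0.026. From knockdown replicate 2 alone they were Apba2 -0.25, Ece1 -0.027, Ksr2 -0.012, Slc22a23 -0.097, Zmiz1 -0.061, the Mt2/Mt1 region at 94189279 -0.071 and the Tmem163 region at 127577077 -0.28. By title they were Celf4 (25538653) 0.068, Slc22a23 -0.030, the Slc3a2 region at 8706093 -0.011 and the Tmem163 region at 127577077 -0.068. Without the most accessible region of each group they were Pbx3 -0.069 and Slc22a23 -0.060. With 1 library left out, Apba2 lay at -0.091 to 0.16, Ece1 at -0.010 to 0.12, Ksr2 at -0.100 to 0.12, Myt1l at -0.036 to 0.082, the Tmem163 region at 127577077 at -0.074 to 0.33 and the Zfp184 region at 21944954 at -0.20 to 0.046. Of the other values for named clusters, 467 kept direction and call, 89 kept direction and were no longer called, and 21 were newly called.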

Other observations

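Regions over tRNA genes were also examined outside the clusters, after the values of the Zfp184 cluster were seen. Of 391 tRNA genes on chromosomes 1 to 19 in RefSeq, 192 are overlapped by an accessible region. Outside clusters, 86 of 158 such regions were higher in knockdown and 1 was lower by edgeR, or 54.4% and 0.633%. Of all regions tested, 15.4% were higher and 12.7% lower. The regions over tRNA genes outside clusters had a median of 13.9 CPM in control, against 2.39 CPM for all regions of these chromosomes. The part of this level in the calls was not tested. The median log2 fold change of the 158 regions was 0.41, as was that of the 14 tRNA regions in clusters other than Zfp184. Scaled by library totals, 44 were higher and 10 lower with a median of 0.15, and from knockdown replicate 2 alone 66 were higher and 0 lower with a median of 0.43. Promoter-window regions of protein-coding genes outside clusters had a median of 0.24, and 37.4% of them were higher and 4.97% lower. Near-identical tRNA copies make the level of a single region uncertain.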
